A study of Mus musculus with 6 samples.

Results

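Casq2 and 9 other genes of calcium handling were measured with Affymetrix Mouse430_2 arrays in 6 whole hearts of mice. The other 9 were Casq1, Hrc, Atp2a2, Pln, Sln, Ryr2, Cacna1c, Cacna1h and Slc8a1. They were chosen by function, as the partners of Casq2 in the calcium cycle of the heart muscle cell, and Casq2 itself had been selected on its difference between hearts of unlike description in an earlier look at these data. All 10 genes were found, out of 18193 genes that a probe set (a group of short probes for the same transcript) names alone, through 24 probe sets of their own. Of these, 21 lay above the limit set for dim probe sets, and each gene kept at least 1.

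The hearts came from 3 wild-type and 3 EphB4 Mutant mice of the strain given as C57B6, with 1 array per heart and no treatment named. Replicates 1 and 2 of each genotype had descriptions that began with eI, and replicate 3 of each had one that began with eM. What the letters stand for, the age and sex of the mice, the kind of EphB4 mutation and the cells that carried it are details not given in the sources used here. Values are log2 intensities after the authors' robust multi-array average, so a difference of 1 is a 2-fold difference, and the level of a gene cannot be set against that of another gene.

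Each beat of the heart is driven by a rise and fall of calcium in the muscle cell. Calcium enters through channels of the cell membrane and triggers a larger release through ryanodine receptors from a store, the sarcoplasmic reticulum. A pump returns it to the store, where calsequestrin and related proteins bind it, and an exchanger carries the rest out of the cell. The embryonic heart is known to rely more on entry and exchange at the membrane, and to build up its store as it matures.

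At the brightest probe set, 8 of the 10 genes had both eM hearts outside the range of the eI hearts, where 23.8% of all genes tested had them below and 20.8% above. Casq2, Pln, Sln and Hrc read lower in both eM hearts than in every eI heart. Ryr2, Cacna1h, Cacna1c and Atp2a2 read higher in both, the last by a margin too small to survive rescaling of the arrays. Between the genotypes, none of the 10 genes passed the test.

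As whole-series facts, array medians lay between 5.89 and 6.01 and upper quartiles between 8.05 and 8.17. Ephb4 read 7.83, 8.20 and 8.06 in wild-type 1 to 3 and 8.14, 7.93 and 8.06 in mutant 1 to 3, which checks nothing about the labels while the kind of mutation is unknown. Xist, made by the inactive X chromosome of females, was low in mutant 1 (6.73) and mutant 3 (6.78) and lay at 11.51 or above in all other hearts, so sex cannot be fully told apart from genotype. Beta-actin controls, whose 3-prime signal exceeds the 5-prime signal by more as RNA degrades, gave an excess of 0.51 for wild-type 3 and 0.77 for mutant 3, where eI hearts had 0.28 to 0.41. The GAPDH controls differed less, at 0.03 for wild-type 3 and 0.12 for mutant 3, where eI hearts had -0.1 to 0.02. The part of RNA quality in the differences between the letters was not tested. Heart muscle markers were bright throughout, with Myl2, the ventricular myosin light chain, at 14.58 to 14.74, and all 22 listed markers lay above the dim limit.

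Among the brightest probe sets of the 10 genes, that of Casq2 had the largest difference in size. Casq2, cardiac calsequestrin, is the main calcium-binding protein inside the sarcoplasmic reticulum. Its probe set read 10.16 and 10.20 in wild-type 1 and 2, 10.13 and 10.13 in mutant 1 and 2, 8.86 in wild-type 3 and 7.70 in mutant 3. The 4 eI hearts lay within 0.07 of each other, both eM hearts lay below them all, and mutant 3 was the lowest. The eM minus eI difference was -1.32 within the wild-type and -2.43 within the mutant hearts, and -1.88 as their mean, a 3.67-fold lower level. Casq2 was chosen for this difference, so it is a description and was not tested. Of the 13572 genes tested, 27 (Casq2 included) had an eM minus eI difference this low or lower. The suffix of its probe set marks probes that may match related transcripts as well, and no second probe set was there to set beside it.

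The bases before the start of Casq2 are shown because they were the only windows of these genes to hold a MEF2 site, a motif bound by muscle transcription factors. Beside them stand those of Hrc and Pln, which like Casq2 read lower in eM hearts, and of Ryr2, which read higher. All are from RefSeq (build GRCm38.p6), run 5′ to 3′ on the gene's strand, and end at its start. Casq2 is at chr3:102086165-102086414 (plus strand), Hrc at chr7:45335019-45335268 (plus), Pln at chr10:53337436-53337685 (plus) and Ryr2 at chr13:12106946-12107195 (minus). Capitals mark the matches of the motifs searched.
Casq2: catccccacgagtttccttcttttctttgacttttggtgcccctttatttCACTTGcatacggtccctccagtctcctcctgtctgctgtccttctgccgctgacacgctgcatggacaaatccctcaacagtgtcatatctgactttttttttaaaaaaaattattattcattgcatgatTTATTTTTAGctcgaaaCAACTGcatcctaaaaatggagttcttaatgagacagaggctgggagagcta
Hrc: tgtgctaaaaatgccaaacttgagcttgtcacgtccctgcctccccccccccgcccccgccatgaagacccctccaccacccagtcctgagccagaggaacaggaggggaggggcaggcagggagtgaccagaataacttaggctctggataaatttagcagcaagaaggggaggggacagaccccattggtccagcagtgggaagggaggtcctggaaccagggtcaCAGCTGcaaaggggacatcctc
Pln: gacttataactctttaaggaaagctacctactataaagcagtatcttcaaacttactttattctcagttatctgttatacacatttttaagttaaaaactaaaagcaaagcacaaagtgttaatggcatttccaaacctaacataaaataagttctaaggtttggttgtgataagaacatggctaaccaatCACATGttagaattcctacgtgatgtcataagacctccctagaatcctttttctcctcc
Ryr2: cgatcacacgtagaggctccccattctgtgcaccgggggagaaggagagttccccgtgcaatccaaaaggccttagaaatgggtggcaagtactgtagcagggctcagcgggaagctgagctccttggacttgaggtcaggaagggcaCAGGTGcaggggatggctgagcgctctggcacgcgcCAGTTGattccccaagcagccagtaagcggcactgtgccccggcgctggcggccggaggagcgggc

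Both strands were searched for the MEF2 site, the CArG box, the E-box CANNTG and the M-CAT motif CATTCC. Casq2 had the MEF2 site at bases 182 to 191 of the window (TTATTTTTAG), as had 2.92% of all 32851 windows of 250 bases in the table. It did not overlap the E-boxes of the window, at bases 51 to 56 (CACTTG) and 199 to 204 (CAACTG). E-boxes were in all 9 windows of the 7 matched genes (Casq1, Casq2, Hrc, Pln, Ryr2, Slc8a1 and Cacna1c) and in 66.2% of all windows. No window of these genes held a CArG box, found in 1.47% of all windows, or CATTCC, found in 12.6%. Atp2a2, Sln and Cacna1h had no entry.

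Hrc, the histidine-rich calcium-binding protein of the same store, followed Casq2 on a smaller scale. It read 11.51 and 11.49 in wild-type 1 and 2, 11.41 and 11.45 in mutant 1 and 2, 11.13 in wild-type 3 and 10.97 in mutant 3. Both eM hearts lay below the eI hearts, whose SD was 0.04 (n = 4), and the difference was -0.41 (-0.37 within wild-type, -0.46 within mutant). Casq1, the calsequestrin of fast skeletal muscle, went the other way. Its levels were 10.81, 11.09 and 11.19 in wild-type 1 to 3 and 10.89, 11.23 and 11.62 in mutant 1 to 3. Mutant 3 was the highest, but wild-type 3 lay below mutant 2, so the letters overlapped, with a mean difference of 0.40. Relative to Casq1 within the same heart, and counted from the eI mean, Casq2 was at -1.47 in wild-type 3 and -3.07 in mutant 3, where eI hearts spanned -0.25 to 0.19.

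Skeletal muscle markers, beside Casq1, differed among themselves. The defining factor Myod1 read 5.22 to 5.65, about the dim limit of 5.38, and Myog, Myf5, Myf6 and Pax7 were left out as dim. Of the 15 listed skeletal muscle markers 8 were tested, and 3 read higher and 2 lower in both eM hearts. Higher were Acta1, Mylpf (a fast myosin light chain, 9.38 and 9.27 against 8.26 to 8.84) and Actn3 (7.16 and 7.47 against 6.41 to 6.76), and lower were Tnni2 (fast troponin I, 10.02 and 9.42 against 10.25 to 10.34) and Ckm (muscle creatine kinase, 7.26 and 6.88 against 7.92 to 8.58). Their summed level was 13.25 to 13.36 in eI and 13.54 and 13.65 in eM hearts, most of it Acta1, skeletal actin, which the embryonic heart also makes. The part of skeletal muscle in the Casq1 level was not tested.

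**Figure D1:**
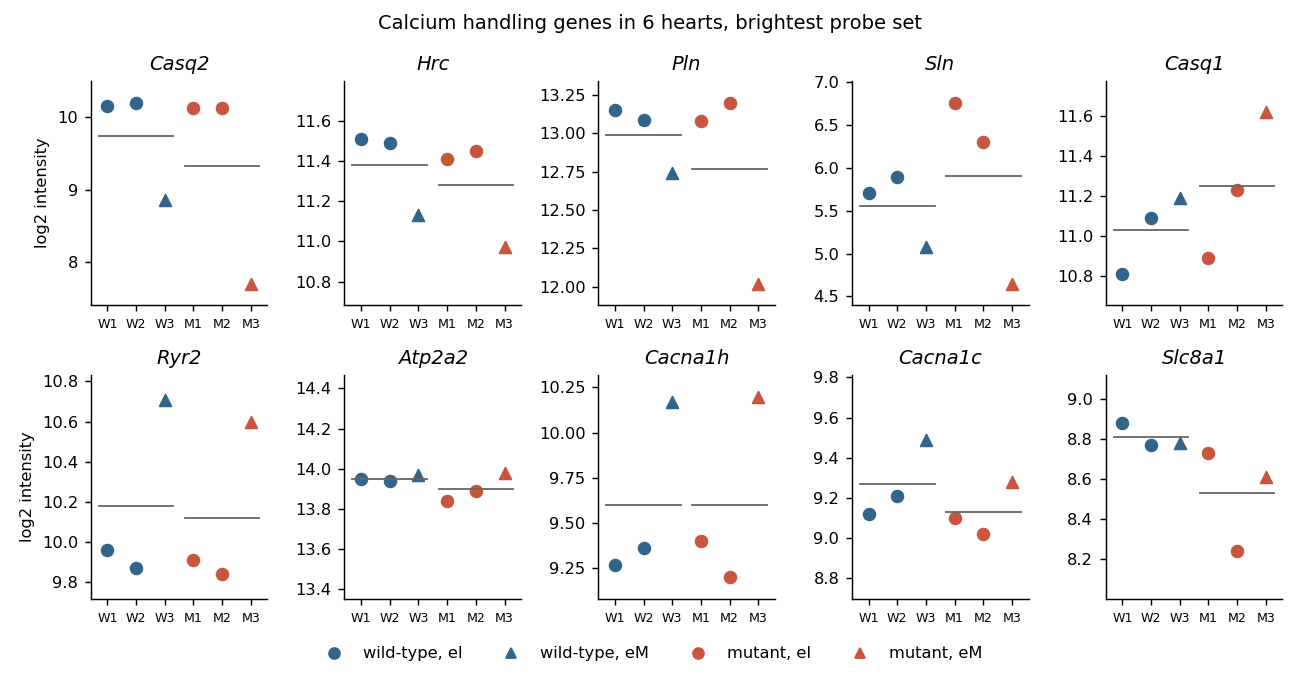
Log2 intensity of each of the 10 genes (brightest probe set) in wild-type hearts 1 to 3 (W1 to W3) and mutant hearts 1 to 3 (M1 to M3). Points are hearts, circles eI and triangles eM, grey lines are means of 3 hearts, and each panel has its own axis. Triangles lie lowest for Casq2, Hrc, Pln and Sln and highest for Ryr2, Cacna1h and Cacna1c, and Casq2 spans 7.70 to 10.20.

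The pump and its inhibitors parted from each other between the letters. Atp2a2 encodes the pump that refills the store. Its brightest probe set read 13.95, 13.94 and 13.97 in wild-type 1 to 3 and 13.84, 13.89 and 13.98 in mutant 1 to 3. The eM hearts were the highest, the nearer by only 0.03, and with quantile normalization or median centring the letters overlapped there. All 6 Atp2a2 probe sets, including a dim one, were higher in both eM hearts as deposited, by 0.07 to 0.75, but one more of them overlapped after quantile normalization. The largest of these differences (0.75) was at a probe set that read 7.84 to 8.49 in eI and 8.75 and 9.16 in eM hearts. Where on the transcript each probe set lies was not analysed here.

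Pln, phospholamban, holds the pump back until it is phosphorylated. Its brightest probe set read 13.15 and 13.09 in wild-type 1 and 2, 13.08 and 13.20 in mutant 1 and 2, 12.74 in wild-type 3 and 12.02 in mutant 3. Both eM hearts were below the eI hearts, and mutant 3 stood farther off. The difference was -0.75 (-0.37 within wild-type, -1.12 within mutant). At the other probe sets of Pln it was -1.19 and -0.56, each without overlap as deposited. At the smaller of these, wild-type 3 (12.52) was only 0.02 below wild-type 1 (12.54), and the letters overlapped there after median centring. Set against Atp2a2 within the same heart and counted from the eI mean, Pln was at -0.45 in wild-type 3 and -1.18 in mutant 3, where eI hearts spanned -0.08 to 0.09.

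Sln, sarcolipin, is an inhibitor of the pump found mainly in atrial and skeletal muscle. Its brighter probe set was weak but passed the dim limit, near the middle of all probe sets. It read 5.71 and 5.89 in wild-type 1 and 2, 6.76 and 6.30 in mutant 1 and 2, 5.08 in wild-type 3 and 4.65 in mutant 3. The eM hearts were the lowest and the eI mutant hearts the highest, and the eM minus eI difference was -1.30 (-0.72 within wild-type, -1.88 within mutant, and -0.71 with the mean of both probe sets). Both eM values lay below the dim limit of 5.38, which the gene passed through its eI hearts. The other probe set (4.13 to 4.37) was left out as dim and its letters overlapped. Atrial muscle markers, a list of 8 that includes Sln, had a summed level of 15.81 to 15.95 in eI and 15.88 and 15.92 in eM hearts. Of the 8, 3 were lower and 1 higher in both eM hearts. Myl7, the atrial myosin light chain, was higher in both eM hearts (14.48 and 14.52 against 14.13 to 14.29), and Nppa, the atrial natriuretic peptide, was lower (14.22 and 14.10 against 14.35 to 14.45).

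The channels among the 10 genes, Ryr2, Cacna1h and Cacna1c, stood higher in the eM hearts at their brightest probe sets. Ryr2, the release channel of the cardiac store, read 9.96 and 9.87 in wild-type 1 and 2, 9.91 and 9.84 in mutant 1 and 2, 10.71 in wild-type 3 and 10.60 in mutant 3. Both eM hearts were above the eI hearts, wild-type 3 the most, by 0.76 on average (0.80 within wild-type, 0.73 within mutant). A dim second probe set, not tested, gave 0.37 in the same direction. Against Ryr2 in the same heart, Casq2 was at -2.11 in wild-type 3 and -3.16 in mutant 3, counted from the eI mean.

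Cacna1h is the pore of a T-type calcium channel, a kind known for its place in the embryonic heart and in pacemaker cells. It read 9.27 and 9.36 in wild-type 1 and 2, 9.40 and 9.20 in mutant 1 and 2, 10.17 in wild-type 3 and 10.20 in mutant 3. The letters did not overlap, and the eM hearts differed by only 0.03, with an eM minus eI difference of 0.88. Its other probe set, at 5.21 to 5.52 just past the dim limit, showed 0.02 with overlap. Cacna1c is the pore of the L-type channel that carries the main calcium current of working heart muscle. It read 9.12 and 9.21 in wild-type 1 and 2, 9.10 and 9.02 in mutant 1 and 2, 9.49 in wild-type 3 and 9.28 in mutant 3, without overlap and with a smaller difference of 0.27. Its other probe set gave 0.41, also without overlap. Relative to Cacna1c, Cacna1h was at 0.49 in wild-type 3 and 0.72 in mutant 3, where eI hearts spanned -0.05 to 0.11.

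Slc8a1, the sodium-calcium exchanger that removes calcium from the cell, overlapped at its brightest probe set but was higher in both eM hearts at all the others. The brightest read 8.88, 8.77 and 8.78 in wild-type 1 to 3 and 8.73, 8.24 and 8.61 in mutant 1 to 3, so the letters overlapped (difference 0.04, 0.00 after quantile normalization). A second read 6.58, 6.56 and 8.15 in wild-type 1 to 3 and 6.20, 6.96 and 8.92 in mutant 1 to 3. There both eM hearts were far above the eI hearts, by 1.96, the largest difference in size of any of the 24 probe sets. The remaining pair gave 1.35 (7.03 and 7.25 in eM against 5.49 to 6.06) and 0.56 (6.34 and 6.11 against 5.27 to 5.90), both without overlap. The brightest probe set carries the suffix for probes shared by transcript variants of 1 gene, and which variants the others match was not analysed here.

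**Figure D2:**
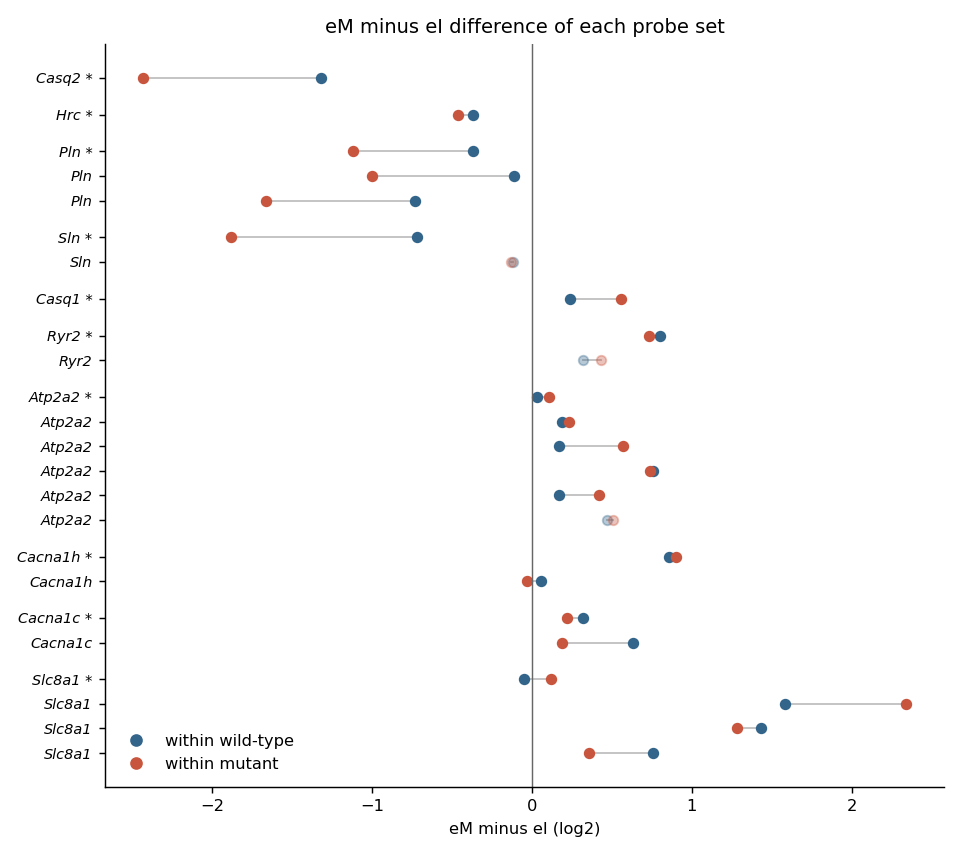
Mean of eM minus mean of eI hearts (log2) for each of the 24 probe sets, within wild-type (blue) and within mutant hearts (red), joined by a line. Stars mark a gene's brightest probe set and pale points were left out as dim. Differences run from -2.43 (Casq2, mutant) to 2.34 (Slc8a1, mutant), and probe sets of 1 gene can differ widely.

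In all, 4 of the 10 genes were lower and 4 higher in both eM hearts than in every eI heart at their brightest probe set, and 2 overlapped. With a difference of at least 1 as well, 2 of the 10 (Casq2 and Sln) were lower and 0 higher, where 1.35% of all genes were lower and 0.56% higher. Sln counts only through its dim eM levels and the mutant hearts: within the wild-type its difference was -0.72. These genes were chosen with the comparison known, so nothing is read from the shares. Their median eM minus eI difference was 0.05, against -0.03 over all genes. Mutant 3 lay farther than wild-type 3 from the eI mean at 7 of the 10, as it did at 65.1% of all genes tested. Quantile normalization and median centring kept the sign of the difference at every one of the 10 but Slc8a1, which went to 0.00 with the former.

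Heart muscle markers, structural genes and transcription factors together, went both ways. Of the 22 tested, 3 (Tnnt2, Tnni3 and Tnni1, all troponin subunits) were lower and 7 (Myh6, Myl7, Ttn, Gata4, Tbx5, Tbx20 and Mef2c) higher in both eM hearts, with a median difference of -0.01 and a summed level of 17.99 to 18.06 in eI and 18.05 and 18.11 in eM hearts. Myl2 read 14.70 and 14.58 in the eM hearts against 14.63 to 14.74 in eI, cardiac actin Actc1 14.60 and 14.63 against 14.40 to 14.65, and the beta-myosin gene Myh7 14.56 and 14.46 against 14.48 to 14.60. Each overlapped, but these are the brightest markers, near the highest value on any array (14.79), where saturation could not be judged. Some less bright ones differed more, such as Ttn, the giant sarcomere protein titin (13.41 and 13.44 against 11.67 to 11.90), and Gata4, a cardiac transcription factor (9.73 and 10.13 against 9.25 to 9.47). Other less bright ones overlapped, such as Mybpc3 (eM minus eI difference 0.14), Ldb3 (-0.13), Actn2 (-0.06), Csrp3 (-0.06) and Nkx2-5 (0.04). Since whole hearts were used, fewer cells of a type and less RNA per cell cannot be told apart for any gene here.

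Markers of muscle maturation were lower in eM hearts at 10 of 12 tested genes (median -0.55), where 23.8% of all genes were lower, for example Gja1, the main gap junction protein, at 12.63 and 12.32 against 12.97 to 13.08. Myh6, the alpha-myosin gene, was the one that was higher (13.76 and 13.85 against 13.00 to 13.19). The 7 ventricular markers, which include Pln, summed to 16.35 and 16.17 in eM against 16.32 to 16.43 in eI hearts. Most of this sum came from the very bright Myl2, Myl3 and Myh7. Of the 7, 2 were lower in both eM hearts (Pln and Kcne1) and 0 higher. Kcne1 read 8.84 and 7.80 in eM against 9.42 to 10.09 in eI hearts.

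Markers of other cell types also moved with the letters, to be read against the same 23.8% lower and 20.8% higher over all genes, and their part in the levels of the calcium genes was not tested. Summed levels were lower in eM hearts for red blood cells (15.06 and 15.15 against 15.42 to 16.03, 5 of 5 tested markers lower), leukocytes (9.83 and 10.28 against 10.71 to 10.92, 3 of 5), endothelial cells (12.80 and 12.91 against 13.08 to 13.17, 3 of 9 lower and 3 higher), fibroblasts and cushion mesenchyme (13.07 and 13.82 against 14.09 to 14.48, 4 of 9 lower and 1 higher) and liver and endoderm (8.30 and 8.55 against 9.54 to 12.42, 5 of 6). They were higher for smooth muscle (14.85 and 14.98 against 14.29 to 14.53, 3 of 6 higher and 1 lower) and epicardium (12.50 and 12.51 against 11.89 to 12.42, 4 of 8 higher and 2 lower). Neural crest and neuronal markers overlapped (8.74 and 9.43 against 8.41 to 8.83).

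**Figure D3:**
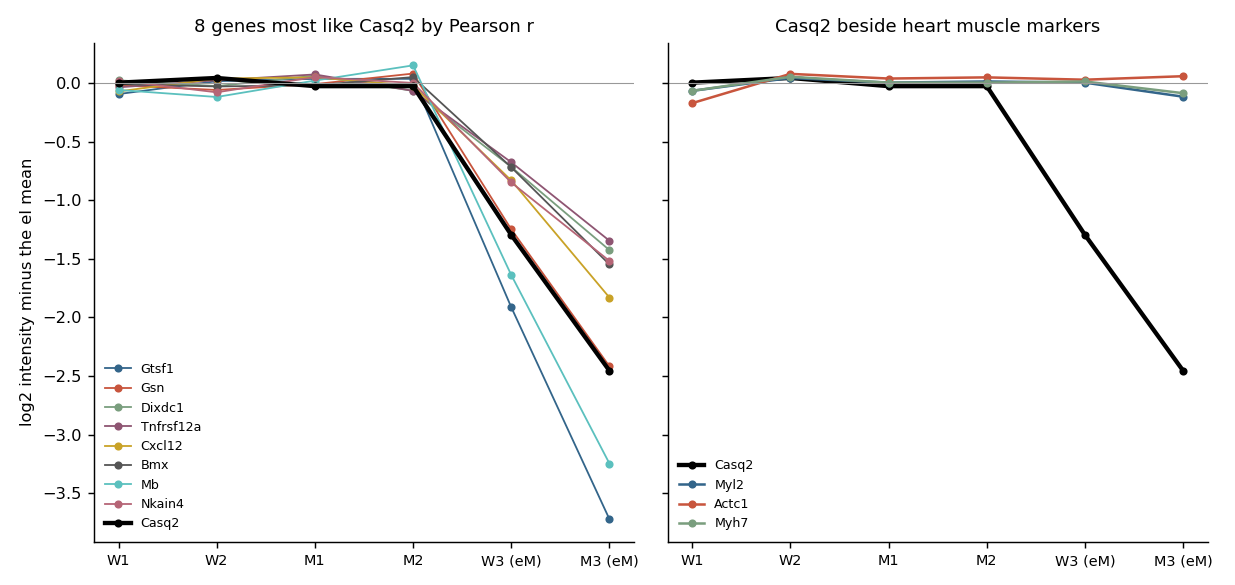
Log2 intensity minus the mean of the eI hearts, for Casq2 (black) with the 8 genes most like it (left) and with the 3 brightest heart muscle markers (right). W1, W2, M1 and M2 are the eI hearts, W3 and M3 the eM hearts, and lines only join the values of 1 gene. The like genes are low in W3 and lower in M3, as Casq2 is, and the 3 markers overlap between the letters, at levels close to the highest on the arrays.

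The genes most like Casq2 were looked for by Pearson r across the 6 hearts, among 976 genes with a range of at least 1. Because the eI range of Casq2 was 0.07, r here is set by the eM hearts, and it is given as a description. At or above r = 0.95 were 185 genes, and at or below -0.95 were 65. The closest was Gtsf1, a gene of small RNA silencing in germ cells (r = 0.9990), at 11.77, 11.88 and 9.95 in wild-type 1 to 3 and 11.90, 11.90 and 8.14 in mutant 1 to 3. Next were Gsn, the actin-severing gelsolin (0.9978), Dixdc1 (0.9965), the receptor Tnfrsf12a (0.9963), the chemokine Cxcl12 (0.9961), the kinase Bmx (0.9961), Mb, the oxygen-binding myoglobin of muscle (0.9958), and Nkain4 (0.9957). Mb read 12.28, 12.22 and 10.70 in wild-type 1 to 3 and 12.36, 12.49 and 9.09 in mutant 1 to 3. Most opposite were Tdo2, an enzyme of tryptophan breakdown (-0.9968), the adhesion gene Cadm1 (-0.9946), Mdn1 (-0.9929) and Prdm6 (-0.9925). Within the eI hearts r with Casq2 was -0.19 for Gtsf1 and -0.86 for Mb, over 4 hearts that hardly differed in Casq2.

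The wider calcium pathway was followed through 92 further genes in 6 groups, 79 of them named by a probe set of their own and 70 tested. Between the letters 24 were lower and 9 higher in both eM hearts, 37 overlapped, and the median difference was -0.06. Over all genes tested, 23.8% were lower and 20.8% higher in this way. Group counts such as 4 of 13 or 3 of 11 lower are near these shares. Others are farther off, such as 4 of 8 lower for mitochondrial uptake and 0 of 13 higher for store refill. The groups are small, and these counts were not tested. Among the 17 release unit partners and other release channels, 6 were lower and 2 higher (median -0.12). Ryr3, a ryanodine receptor of other tissues, stood at 6.46 and 5.52 in eM against 6.74 to 7.21 in eI hearts, and S100a1, a calcium sensor that binds ryanodine receptors, at 9.47 and 9.24 against 9.64 to 10.04. Among 8 other pumps and exchangers, 3 were lower and 2 higher (median -0.04), with Atp2b1, a pump of the cell membrane, at 10.39 and 10.63 against 9.53 to 9.88, and the mitochondrial exchanger Slc8b1 at 6.93 and 6.85 against 7.25 to 7.38.

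Among 11 other channel subunits, 3 were lower and 3 higher (median -0.01). Cacna2d2, an auxiliary subunit, read 11.44 and 11.62 in eM against 10.05 to 10.55 in eI hearts, and Cacna1d, the pore of another L-type channel used by pacemaker cells, 7.31 and 7.44 against 6.59 to 6.89. Of 13 genes for kinases, phosphatases and their partners (the calmodulin genes of the list had no probe set of their own), 4 were lower and 2 higher (median -0.15). Hspb6, a small heat shock protein, was at 6.45 and 6.61 against 7.30 to 7.99, and Prkar1a, a regulatory subunit of the cyclic AMP-dependent kinase, at 11.66 and 11.46 against 11.91 to 12.09. Store refill and other luminal proteins held 4 lower and 0 higher of 13 (median -0.13), among them Orai3, a store-operated channel, at 7.10 and 6.90 against 7.64 to 7.71, and Rcn3, a calcium-binding protein of the secretory pathway, at 10.52 and 10.27 against 10.88 to 11.05. Mitochondrial uptake held 4 lower and 0 higher of 8 (median -0.09), with Micu2, a gatekeeper of the uniporter, at 10.87 and 10.64 against 10.96 to 11.04 and Smdt1, another uniporter subunit, at 12.17 and 11.99 against 12.19 to 12.47.

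**Figure D4:**
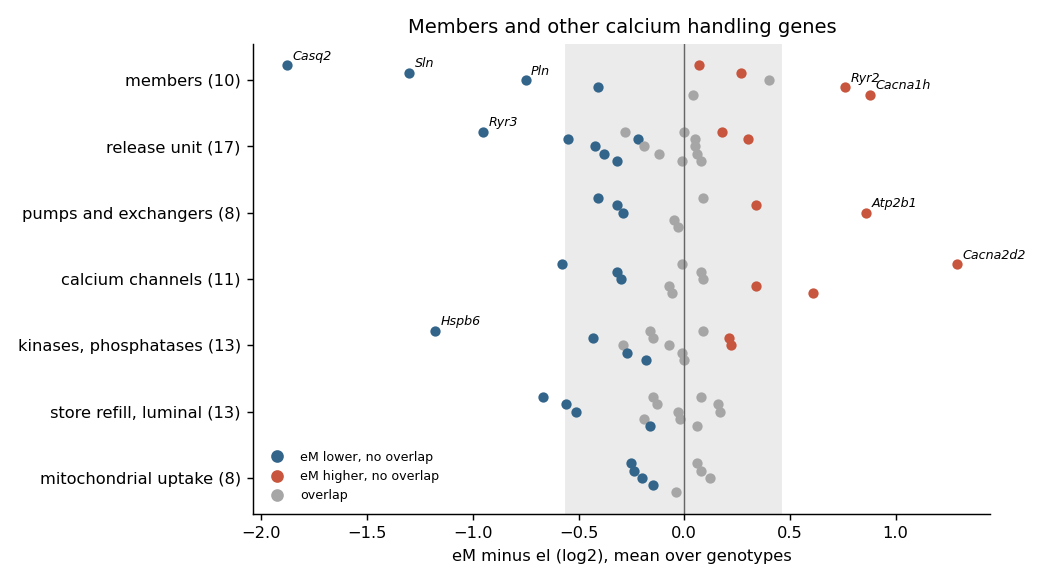
eM minus eI difference (log2, mean over the genotypes) of the 10 genes and of the 70 further calcium handling genes tested, with the number per group in brackets. Points are genes, coloured by whether both eM hearts lay below (blue) or above (red) every eI heart or overlapped (grey), and the shaded band spans the 5th to 95th percentile of all genes tested (-0.56 to 0.46). Casq2, Sln and Hspb6 lie farthest to the left and Cacna2d2 farthest to the right.

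Mutant and wild-type hearts were then compared, which is the comparison the labels name. None of the 10 genes passed limma's test, with an adjusted p of 0.9997 for each, and 0% of the 13572 genes did (0 genes, with 127 at an unadjusted p under 0.05, none of them among the 10). Mutant means were lower at 8 of the genes, among them Cacna1h with a difference of 0.00 after rounding, and higher at 2. The median difference was -0.08 against 0.00 over all genes. The share of all genes with a lower mutant mean was not counted, so nothing is read from these counts. The smallest two-sided exact permutation p that 3 against 3 allows is 0.1.

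Casq2 averaged 9.74 ± 0.76 (SD, n = 3) over the wild-type and 9.32 ± 1.41 over the mutant hearts. The difference of -0.42 had a 95% confidence interval of -2.14 to 1.30 in limma, so wide because each genotype held 1 low eM heart. With the letters added to the fit as a block, the interval was -0.96 to 0.12 and still spanned 0. The difference was -0.05 within the eI and -1.16 within the eM hearts, and 0.39 without mutant 3. Without mutant 3, the wild-type mean still holds an eM heart and the mutant mean does not. The values without mutant 3 in this paragraph therefore mix genotype with the letters. For Pln the values were 12.99 ± 0.22 and 12.77 ± 0.65, a difference of -0.22 (interval -0.98 to 0.53) that was 0.03 within eI and -0.72 within eM, and 0.15 without mutant 3. Hrc differed by -0.10 (-0.51 to 0.31), and by 0.06 without mutant 3. Sln differed by 0.35 (-0.94 to 1.63), which joined 0.73 within eI to -0.42 within eM, and it was -0.08 without mutant 1. Casq1 differed by 0.22 (-0.26 to 0.70).

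Slc8a1 had the smallest unadjusted p of the 10 at its brightest probe set. It averaged 8.81 ± 0.06 over the wild-type and 8.53 ± 0.25 over the mutant hearts (SD, n = 3 each), a difference of -0.29 (interval -0.62 to 0.05; limma p = 0.0811; exact permutation p = 0.1). All 3 mutant hearts lay below the wild-type hearts, mutant 2 the farthest. It was the only 1 of the 10 without overlap between genotypes, where 2.25% of all genes were lower and 2.14% higher in the mutant in this way. The difference was -0.34 within eI and -0.17 within eM hearts, and the other probe sets of Slc8a1 gave 0.03, 0.26 and 0.32, each with overlap.

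The remaining genes lay closer together. Ryr2 differed by -0.06 (-0.76 to 0.63), Cacna1c by -0.14 (-0.45 to 0.17), Cacna1h by 0.00 (-0.80 to 0.80) and Atp2a2 by -0.05 (-0.25 to 0.15). With wild-type 3 left out, Ryr2 differed by 0.20 and Cacna1h by 0.29. Only the mutant mean then holds an eM heart, so these values mix genotype with the letters. Without the letters in the fit, Atp2a2 had the narrowest interval of the 10, so at its brightest probe set a mutant level lower by over 0.25 lies outside it. With the letters as a block, intervals were -0.23 to 0.13 for Atp2a2, -0.28 to 0.08 for Hrc and -0.25 to 0.12 for Ryr2. The brightest Atp2a2 probe set read 13.84 to 13.98, and saturation could not be judged. The other tested probe sets of Atp2a2 differed by -0.03 (-0.45 to 0.40), -0.05, 0.20 and 0.42. Of the 70 further calcium genes, 0 passed limma's test (30 higher and 40 lower in the mutant, median -0.01 against 0.00 over all genes). Smallest unadjusted p in its group belonged to Bin1 (0.17), Atp2a1 (-0.10), Cacna1e (0.18), Camk2b (0.16), Hspa5 (-0.15) and Micu3 (0.13), with the mutant minus wild-type difference in brackets.

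**Figure D5:**
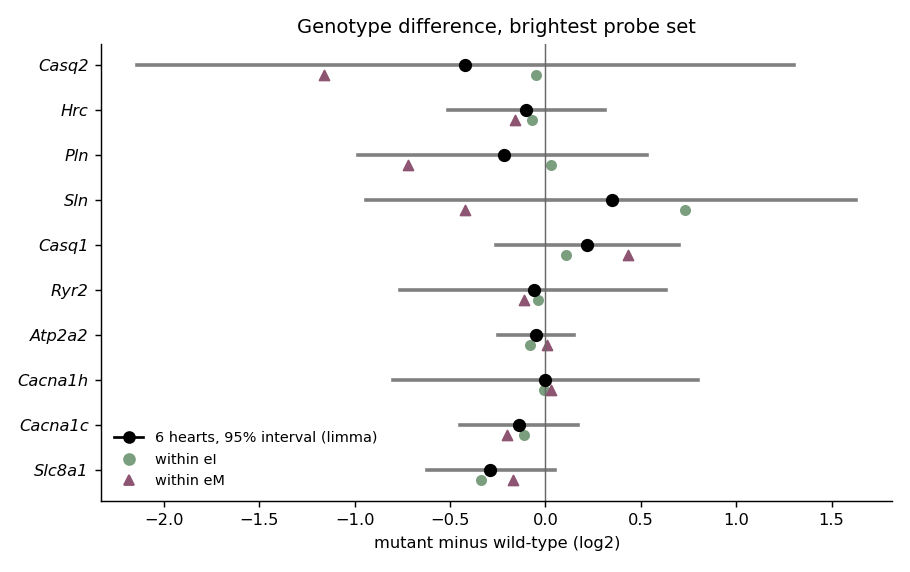
Mutant minus wild-type difference (log2) of the brightest probe set of each gene, with its 95% confidence interval from limma over 6 hearts (black point, grey bar), and the same difference within the 4 eI hearts (green) and between the 2 eM hearts (purple triangle). The letters are not in this fit. Every interval spans 0, and the interval of Casq2 (-2.14 to 1.30) is the widest.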

How the data were processed

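RNA of 6 whole hearts was hybridised to Affymetrix Mouse430_2 arrays, 1 per heart. The deposited values are log2 intensities that the authors made with RMA, as the submitters' processing notes say (no version given). No scanner files were used here, so background and saturation could not be judged, and the number of arrays limits the precision. Groups and replicate numbers came from titles and the letters from descriptions. Nothing says which hearts share a litter.

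Of 45101 probe sets, 64 controls were left out. Genes were named from the platform annotation: 34945 probe sets named 1 gene, 932 several, and 9160 were unnamed here. Dim probe sets, the 40% of lowest mean (below 5.38), were dropped. This kept 27022 probe sets and, by the brightest of each, 13572 genes. The genotype test was limma 3.58.1 run in R 4.3.3 (two-sided; lmFit, then eBayes), with p-values adjusted over all genes by Benjamini-Hochberg and a threshold of 0.05. The main fit held genotype alone. It was also run on simulated arrays with independent noise and no difference between the letters. That setting is unlike these hearts, so nothing about them is read from it. eM minus eI is the mean of the differences within each genotype and was not tested. Figures used matplotlib 3.10.9.

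The 10 genes, the lists and the tests were chosen with earlier results of these data known. Named from lists were the 2 genes of largest eM minus eI difference and the 1 of smallest limma p per calcium group. Up to 3 brightest markers and the 8 most and 4 least Casq2-like genes were also named. Myod1, Myog, Myf5, Myf6 and Pax7 were named as the defining skeletal muscle factors. Mylpf, Actn3, Tnni2, Ckm, Kcne1 and the heart muscle markers outside the 3 brightest were named after their values were seen. Deviations from the genotype means of hearts with the same replicate number correlated at 0.18, 0.36 and 0.74. All exceed 0.1, so the numbers, known from titles alone, were used as pairs in an alternative fit, the replicate block. The main limma test and the permutation test were unpaired. Hearts of unlike number but the same letters correlated more (0.49 and 0.47) than pairs 1 and 2, and number 3 is the eM pair, so these correlations follow the letters. Alternatives were other filters, scalings, blocks, probe set rules and left-out hearts.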

Additional observations from a re-analysis of the deposited data

Results flagged for a closer look

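For some probe sets the mutant hearts lay on one side of the wild-type hearts among the eI hearts and on the other side in the eM pair. These differences between eM and eI were not tested, and each rests on 1 pair of eM hearts.

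Pln showed this at 2 of its probe sets, where the mutant minus wild-type difference in eM minus that in eI was -0.93 (0.18 in eI, -0.75 in eM) and -0.89 (0.16 and -0.73). Sln showed it at its brighter probe set, by -1.16 (0.73 and -0.42). The second probe set of Cacna1c gave -0.44 (0.22 and -0.22). Atp2a2 went the opposite way, by 0.09 at its brightest probe set (-0.08 and 0.01) and by 0.41 at another (-0.16 and 0.24).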

How the results depend on the processing

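Across alternatives no member passed the threshold in limma: of 149 genotype differences of the 10 genes, 134 kept their sign and 15 turned it, and the lowest adjusted p was 0.94. With the letters as a block, limma called 0 genes. With the replicate block, limma called 0 genes, and the pairing changed no call. Slc8a1 stayed at -0.29, with an unadjusted limma p of 0.0483 (adjusted 0.9993), the only 1 of the 10 under 0.05 there. With the mean of all probe sets, Atp2a2 was 0.13, Ryr2 0.08, Cacna1h 0.03 and Slc8a1 0.08. In the eI hearts alone Pln was 0.03. Leaving out 1 heart in turn gave -0.86 to 0.39 for Casq2, -0.22 to 0.06 for Hrc, -0.44 to 0.15 for Pln (each positive without mutant 3), -0.08 to 0.97 for Sln (negative without mutant 1), -0.31 to 0.20 for Ryr2 and -0.30 to 0.29 for Cacna1h. Genes called ranged from 0 to 2 (2 without mutant 2) and probe sets called from 0 to 2 (1 without wild-type 3, 2 without mutant 2). Without mutant 2, the mutant hearts left all had low Xist and the wild-type hearts all high Xist. Sex and genotype cannot be told apart there. Without mutant 3 or wild-type 3, the eM heart left belongs to 1 genotype, so those values and calls mix genotype with the letters.

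The Casq2 eM minus eI difference of -1.88 was -1.91 after quantile normalization, -1.32 within wild-type and -2.43 within mutant hearts, which is also its range with a heart left out (-2.43 to -1.32). Of 110 such values for the 10 genes, 4 had the opposite sign, all for Slc8a1 and none past 0.08 in size. With the mean of all its probe sets the Slc8a1 difference was 0.98, against 0.04 at the brightest. There was only 1 eM heart per genotype, which limits every statement on the letters.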
